A study of Homo sapiens with 12 samples.

Results

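The genes described here drive and carry out cell division: 48 named genes of the G2 phase, the spindle and mitosis, taken as a fixed list of symbols. Each gene was represented by its brightest probe set, the one with the highest mean over 12 arrays among probe sets assigned to that symbol alone. Of the 48 genes, 46 were measured above the filter used for all genes (at least 5 log2 units on at least 3 arrays), out of 10050 genes tested. All 46 were at or above 5 log2 units on all 12 arrays and 42 were at or above 7 log2 units on all of them, so none passed through the group in which it was high. The remaining 2 genes, INCENP (2.05 to 2.57 log2 units over the arrays) and SGO1 (3.14 to 5.07), lay at levels where the background correction decides the value and were not tested.

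The cells were HK-2, an immortalised epithelial line of the human proximal tubule. They received an agent labelled Ra or its vehicle, and RNA was taken after 12 h or 48 h. There were 3 biological replicates in each of 4 groups: control 12 h, Ra 12 h, control 48 h and Ra 48 h. The cells were plated a day before treatment, were near confluence when it began, and all groups grew in the same defined medium with epidermal growth factor and insulin. The sources do not say what Ra is or at what dose it was used, and all groups come from a single cell line. Expression is given as GCRMA log2 values from Affymetrix 3′ arrays, where 1 unit is a 2-fold difference, and the number of arrays limits the precision. Nothing in the labels describes how the replicates were made, so p-values measure the spread between these samples.

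Cells make most of these transcripts in G2 phase and in mitosis. Cyclins A and B activate CDK1, the kinase that starts mitosis. Aurora and Polo-like kinases, kinesin motors and kinetochore proteins then build the spindle and attach chromosomes to it, and the spindle checkpoint holds back the anaphase-promoting complex until every chromosome is attached. The transcription factor FOXM1 and the B-MYB and MuvB proteins switch the group on late in the cycle, and in resting cells the DREAM complex represses it through promoter elements named CDE and CHR. In a culture of mixed cells, fewer dividing cells and less of each transcript per dividing cell cannot be told apart from RNA of the whole culture.

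Many promoters of these genes hold short sequence elements, whose part in the changes was not tested. Windows of 300 bases from RefSeq (GRCh38.p14, 250 bases before and 50 after each annotated start) were found for 41 of the 48 genes, in 51 windows. The genes without one were FOXM1, AURKA, BIRC5, BUB3, TTK, UBE2C and TPX2. Both strands were searched for the CHR form TTTGAA, the variant TTTAAA, and CCAAT, the core of the NF-Y binding element. In 5 members the stretch from 250 bases before the start to 5 bases after it reads as follows, with the motif letters of either strand in capitals. The windows are chr5:69166900-69167154 on the plus strand for CCNB1, chr15:59104896-59105150 on the plus strand for CCNB2, chr16:23678639-23678893 on the plus strand for PLK1, chr12:53268049-53268303 on the plus strand for ESPL1 and chr2:168890426-168890680 on the minus strand for SPC25.
CCNB1: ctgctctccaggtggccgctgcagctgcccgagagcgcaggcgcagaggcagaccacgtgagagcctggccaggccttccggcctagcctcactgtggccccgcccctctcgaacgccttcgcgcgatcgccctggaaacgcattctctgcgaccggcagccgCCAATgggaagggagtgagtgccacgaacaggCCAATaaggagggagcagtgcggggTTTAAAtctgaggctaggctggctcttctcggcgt
CCNB2: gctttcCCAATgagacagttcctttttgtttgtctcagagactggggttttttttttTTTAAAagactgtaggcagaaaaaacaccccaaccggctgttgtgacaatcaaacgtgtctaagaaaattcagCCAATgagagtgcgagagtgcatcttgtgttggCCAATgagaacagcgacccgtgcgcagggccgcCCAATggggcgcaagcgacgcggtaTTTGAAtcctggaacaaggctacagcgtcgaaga
PLK1: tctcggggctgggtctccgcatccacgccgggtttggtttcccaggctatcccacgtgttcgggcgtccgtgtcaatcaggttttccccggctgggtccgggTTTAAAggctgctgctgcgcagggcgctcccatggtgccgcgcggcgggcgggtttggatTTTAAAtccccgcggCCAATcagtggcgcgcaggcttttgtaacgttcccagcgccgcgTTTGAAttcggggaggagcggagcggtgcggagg
ESPL1: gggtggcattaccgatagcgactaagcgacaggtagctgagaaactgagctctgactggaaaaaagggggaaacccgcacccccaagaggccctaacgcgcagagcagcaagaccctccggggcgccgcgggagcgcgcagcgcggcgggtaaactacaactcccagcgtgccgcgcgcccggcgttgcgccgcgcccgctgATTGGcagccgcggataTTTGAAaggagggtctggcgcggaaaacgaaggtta
SPC25: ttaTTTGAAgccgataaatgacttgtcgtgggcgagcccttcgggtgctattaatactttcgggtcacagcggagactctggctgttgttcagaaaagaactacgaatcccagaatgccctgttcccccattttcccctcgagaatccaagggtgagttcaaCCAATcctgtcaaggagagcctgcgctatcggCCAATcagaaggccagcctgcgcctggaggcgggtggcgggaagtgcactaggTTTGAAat
CCNB1 carried TTTAAA starting 30 bases before its start, and CCNB2 and PLK1 carried TTTGAA 29 bases before theirs. In ESPL1 the element lay 31 bases before the start, and in SPC25 one copy lay at 3 bases and another at 247 bases before it. TTTGAA was present in 29 of the 41 genes (70.7%), against 18.2% of the 27305 genes in the table and 13.6% of the 8361 genes that were also tested on the arrays. CCAAT was present in 34 (82.9%), against 39.7% and 43.9%, and TTTAAA in 15 (36.6%), against 14.5% and 10.5%. Either CHR form together with CCAAT was found in 28 members (68.3%), against 11.2% and 9.01%. The members shown above all hold both. Only 1 pair of different motifs overlapped in the members' windows, and MELK held none of the 3 motifs. These are letter matches, not binding sites. Among tested genes outside the list, 726 held both elements and 15.3% of them fell in control cells between 12 h and 48 h, against 9.06% of the 7596 genes without both. With Ra at 48 h, 3.99% and 2.65% of these genes rose. The other mitosis and DNA replication genes read below were not taken out of these sets.

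The 48 h arrays varied more than the 12 h arrays. Within a group the lowest correlation between arrays was 0.997 at 12 h in both treatments, 0.991 in control cells at 48 h and 0.981 with Ra at 48 h. Ra 48 h replicate 2 stood apart, with a median of all genes 0.65 log2 units below the control 12 h means. The members' main counts of calls and medians at 48 h are therefore also given without it. Counts of groups that do not overlap, and counts of gene sets outside the list, are given with all arrays only. The cells expressed all 6 epithelial markers examined, such as KRT18 and EPCAM, but only 3 of 16 proximal tubule markers (SLC4A4, PAX8 and CDH6), and LRP2, CUBN and AQP1 were not measured above the filter. Of the markers of endothelial and immune cells 0 of 6 each were measured, of fibroblast markers 3 of 7, of podocyte markers 2 of 5 and of distal nephron markers 1 of 7.

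**Figure D1:**
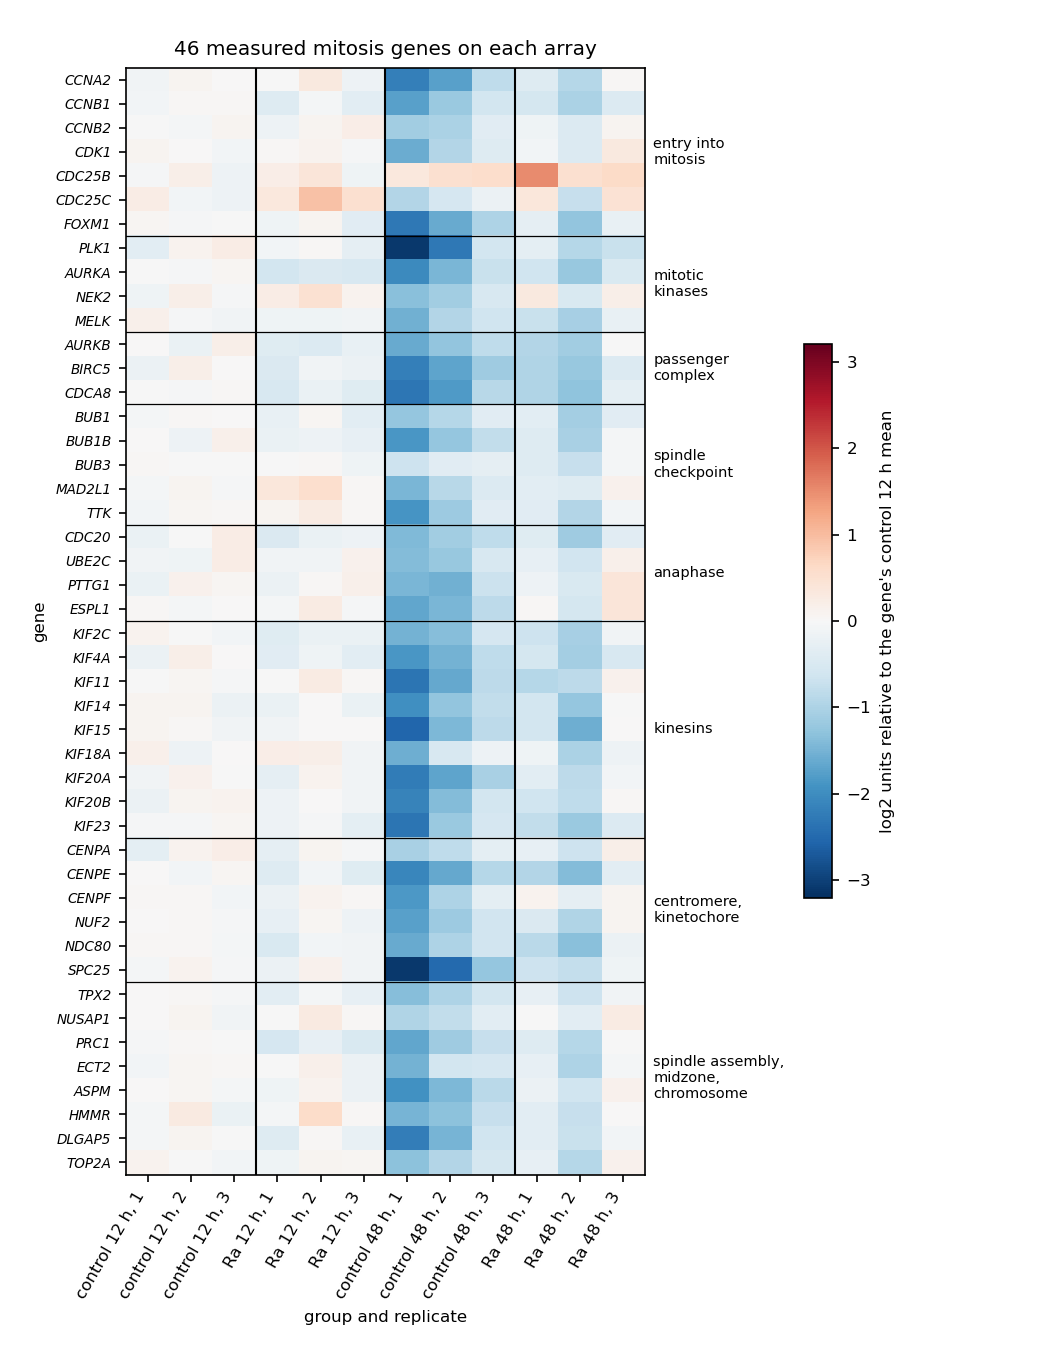
Level of the 46 measured genes (rows, grouped by role) on each of the 12 arrays (columns, replicates 1 to 3 of each group) in log2 units relative to the gene's mean in control cells at 12 h; blue is lower and red is higher. The control 48 h columns are the bluest, replicate 1 most of all, and CDC25B alone is higher there than at 12 h.

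In control cells most of the group fell between 12 h and 48 h. Of the 46 genes 41 fell and 0 rose at an adjusted p of 0.05 (limma, all 12 arrays), where 10.1% of all tested genes fell and 9.37% rose. The median member was at -1.18 log2 units, while the median of all genes was 0.01. All 3 control 48 h arrays lay below all 3 control 12 h arrays for 44 members, as for 26% of all genes. The genes not called were CDC25B, CDC25C, BUB3, KIF18A and CENPA.

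Cyclins and CDK1 opened the list. CCNB1, the B-type cyclin that partners CDK1 at mitotic entry, read 12.54, 12.67 and 12.65 log2 units at 12 h and 10.89, 11.42 and 12.02 at 48 h, a difference of -1.18 ± 0.24 (SE, n = 3 per group; limma adjusted p = 0.0075). CCNB2, a second B-type cyclin, went from 11.18, 11.14 and 11.29 to 10.09, 10.19 and 10.85 (-0.82 ± 0.21, limma adjusted p = 0.017). CCNA2, the A-type cyclin of S and G2 phases, went from 10.96, 11.16 and 11.09 to 8.89, 9.34 and 10.26 (-1.57 ± 0.31, limma adjusted p = 0.0066). In each of the 3 genes the lowest array was control 48 h replicate 1 and the groups did not overlap. CDK1 itself went from 11.83, 11.76 and 11.67 to 10.16, 10.81 and 11.33 (-0.99 ± 0.25, limma adjusted p = 0.0185), a 1.98-fold fall. FOXM1, which activates transcription of many mitotic genes, went from 8.82, 8.72 and 8.75 to 6.48, 7.16 and 7.77 (-1.63 ± 0.33, limma adjusted p = 0.00709).

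Neither CDC25 phosphatase, enzymes that remove the inhibitory phosphates from CDK1, passed the test in the fit of 12 arrays. CDC25B read 10.91, 11.12 and 10.78 at 12 h and 11.27, 11.46 and 11.49 at 48 h, so its 48 h arrays were all higher, as for 24.8% of all genes. The difference of 0.47 ± 0.24 missed the threshold there (limma adjusted p = 0.185) and passed in a fit of the 6 control arrays alone (limma adjusted p = 0.0272). In that fit 42 members fell and CDC25B rose, where 16.6% of all genes went each way. CDC25C read 8.07, 7.74 and 7.66 at 12 h and 6.90, 7.28 and 7.64 at 48 h, with a difference of -0.56 ± 0.31 that did not pass (limma adjusted p = 0.238). Its groups barely separated, with control 48 h replicate 3 next to control 12 h replicate 3.

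All 4 mitotic kinases fell. PLK1, the Polo-like kinase needed for spindle assembly and for CDK1 activation, read 8.85, 9.30 and 9.42 at 12 h and 6.09, 6.90 and 8.60 at 48 h. Its difference of -1.99 ± 0.47 (limma adjusted p = 0.0129) was second in size, and the 3 control 48 h arrays lay far apart. AURKA, the Aurora kinase of the spindle poles, went from 12.08, 12.05 and 12.17 to 10.06, 10.63 and 11.38 (-1.41 ± 0.27, limma adjusted p = 0.00582). The centrosome kinase NEK2 differed by -0.99 ± 0.25 and MELK by -1.03 ± 0.23. The 3 measured genes of the chromosomal passenger complex, which corrects faulty attachments of chromosomes, fell as well. AURKB, its kinase, went from 10.25, 10.03 and 10.44 to 8.64, 8.99 and 9.42 (-1.23 ± 0.28, limma adjusted p = 0.0111). BIRC5 (survivin) read 10.98, 11.34 and 11.18 at 12 h and 8.98, 9.48 and 10.04 at 48 h, a 3.18-fold fall (-1.67 ± 0.26, limma adjusted p = 0.00278). CDCA8 (borealin) read 10.53, 10.52 and 10.60 and then 8.25, 8.74 and 9.67 (-1.66 ± 0.32, limma adjusted p = 0.00577). Every control 48 h array of these kinases and passenger genes was below the 12 h arrays.

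Of 5 spindle checkpoint genes 4 fell. The checkpoint kinase TTK (MPS1) went from 9.98, 10.12 and 10.10 to 8.17, 8.89 and 9.70 (-1.15 ± 0.32, limma adjusted p = 0.0267). BUB1, a kinase at the kinetochore, went from 10.18, 10.29 and 10.26 to 9.01, 9.33 and 9.88 (-0.83 ± 0.25, limma adjusted p = 0.0351). BUB1B (BUBR1) differed by -1.30 ± 0.28 and MAD2L1 (MAD2) by -0.93 ± 0.23, both past the test. BUB3, which brings BUB1 and BUBR1 to the kinetochore, read 12.54, 12.49 and 12.51 and then 11.85, 12.16 and 12.23. Its groups did not overlap, but its difference of -0.44 ± 0.16 did not pass (limma adjusted p = 0.0778).

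The 4 measured genes of anaphase fell by similar amounts. CDC20, which switches on the anaphase-promoting complex, went from 11.44, 11.63 and 11.88 to 10.23, 10.53 and 10.83 (-1.12 ± 0.22, limma adjusted p = 0.0065). UBE2C, the ubiquitin-conjugating enzyme of that complex, went from 12.52, 12.49 and 12.85 to 11.22, 11.42 and 12.10 (-1.04 ± 0.23, limma adjusted p = 0.0107). PTTG1 (securin), the inhibitor that holds separase back, went from 11.82, 12.15 and 12.10 to 10.56, 10.49 and 11.34 (-1.23 ± 0.25, limma adjusted p = 0.00695). ESPL1, separase itself, which cuts the cohesin ring, differed by -1.33 ± 0.26. PTTG1 was the only one of the 46 genes in which control 48 h replicate 1 was not the lowest array of its group.

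Kinesins, the motors of the spindle, were lower in all 9 members, of which 8 fell. KIF11, which pushes the spindle poles apart, went from 10.34, 10.41 and 10.31 to 8.02, 8.71 and 9.53 (-1.60 ± 0.34, limma adjusted p = 0.00894). KIF20A, a motor of the central spindle and cytokinesis, went from 10.72, 10.96 and 10.83 to 8.61, 9.14 and 9.81 (-1.65 ± 0.27, limma adjusted p = 0.00355). KIF15, which can share the work of KIF11, went from 8.41, 8.35 and 8.21 to 5.79, 6.89 and 7.50 (-1.60 ± 0.41, limma adjusted p = 0.0193). These 3 motors fell about 3-fold (3.04, 3.14 and 3.04). KIF18A, which shortens kinetochore microtubules, read 8.82, 8.48 and 8.67 and then 7.11, 8.16 and 8.50. Its groups overlapped and its difference of -0.74 ± 0.33 did not pass (limma adjusted p = 0.142).

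SPC25, a subunit of the NDC80 complex that joins kinetochores to microtubules, had the largest difference of all 46. It read 10.36, 10.53 and 10.38 at 12 h and 7.35, 7.93 and 9.19 at 48 h, a 4.81-fold fall (-2.27 ± 0.36, limma adjusted p = 0.00281). Its partners NUF2 (-1.17 ± 0.29) and NDC80 (-1.07 ± 0.29) fell less, by values that cannot be compared as levels because each comes from its own probe set. CENPF, a large kinetochore protein, went from 12.11, 12.10 and 11.97 to 10.22, 11.06 and 11.74 (-1.05 ± 0.28, limma adjusted p = 0.0227). CENPA, the histone that marks centromeres, read 8.47, 8.89 and 8.99 and then 7.75, 7.96 and 8.46. The highest control 48 h array of CENPA lay just below the lowest control 12 h array, and its difference of -0.73 ± 0.26 did not pass (limma adjusted p = 0.0675).

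All 8 genes of spindle assembly, the midzone and chromosome structure fell. TPX2, which activates AURKA on the spindle, went from 11.88, 11.93 and 11.84 to 10.51, 10.88 and 11.29 (-0.99 ± 0.20, limma adjusted p = 0.00651). TOP2A, the topoisomerase that untangles sister chromatids, went from 13.03, 12.90 and 12.84 to 11.60, 12.00 and 12.37 (-0.93 ± 0.24, limma adjusted p = 0.0179). The others ranged from NUSAP1 (-0.69 ± 0.18), a microtubule-binding protein, to DLGAP5 (-1.45 ± 0.31), which stabilises spindle fibres. Their limma adjusted p lay between 0.0044 for ASPM and 0.0379 for ECT2.

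The 3 control cultures at 48 h did not fall equally. Over the 46 genes the median level relative to control 12 h means was -1.67 log2 units in control 48 h replicate 1, -1.20 in replicate 2 and -0.61 in replicate 3. The 3 control 12 h arrays were at -0.02, 0.04 and -0.01. The arrays stood in this same order in 45 of 46 members, as in 22.8% of all genes. In 43 members control 48 h replicate 1 was the lowest of all 12 arrays, which was not counted for all genes. The median SD between control 48 h replicates was 0.54 log2 units for the members against 0.22 for all genes, and 0.095 against 0.12 at 12 h. The gap between the 3′ and 5′ control probe sets of ACTB, which grows as RNA degrades, was 0.98, 0.96 and 0.79 log2 units in control 12 h replicates 1, 2 and 3, 1.19, 1.13 and 0.90 in control 48 h and 0.79, 1.13 and 0.91 in Ra 48 h. Its part in these results was not tested. Without control 48 h replicate 1 the count of falls was 22 in place of 41, and without control 48 h replicate 2 it was 24, where 4.01% and 4.37% of all genes fell. Without control 12 h replicates 2 or 3 it was 25 or 23, against 4.82% and 3.81% of all genes, and the number of samples is smaller in each of these fits.

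**Figure D2:**
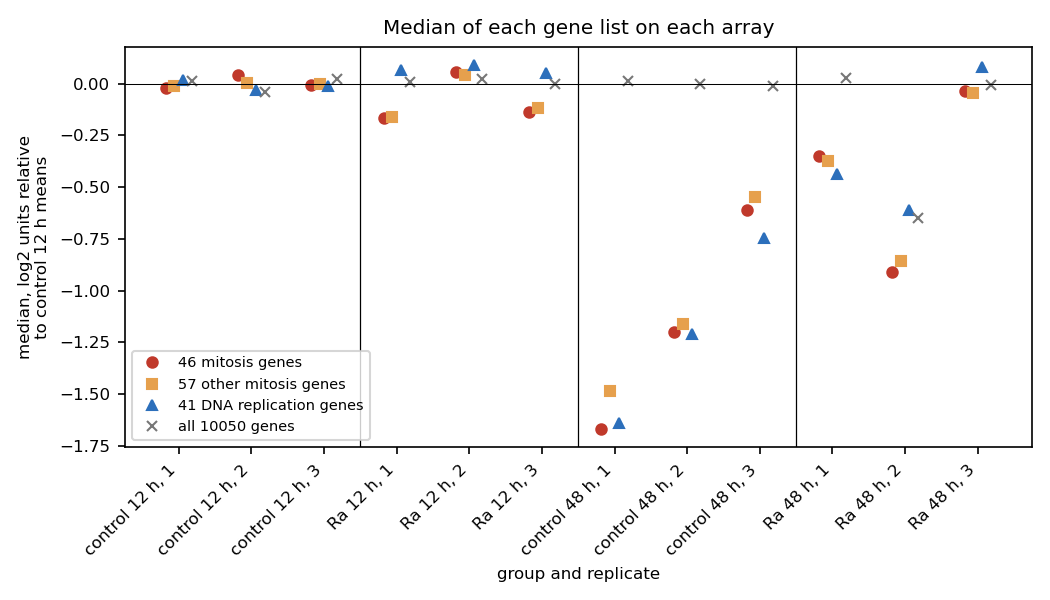
Median over each gene list on each array, in log2 units relative to control 12 h means, for the 46 mitosis genes (circles), 57 other mitosis genes (squares), 41 DNA replication genes (triangles) and all 10050 genes (crosses). The control 48 h medians of the 46 genes lie at -1.67, -1.20 and -0.61, the Ra 48 h medians at -0.35, -0.91 and -0.03, and in Ra 48 h replicate 2 the median of all genes is low too.

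After 48 h the division genes were higher in Ra-treated than in control cells. All 46 members had a higher mean with Ra, and 12 of them rose while 0 fell (limma, all 12 arrays), where 3% of all genes rose and 9.56% fell. The median member was 0.72 log2 units higher, against a median of all genes of -0.20, and 32.9% of all genes had a higher mean. The 12 genes were SPC25, ESPL1, KIF20A, ASPM, CCNA2, PTTG1, DLGAP5, CENPF, NEK2, CDK1, UBE2C and NUSAP1, and all of them had also fallen in control cells over time. Both comparisons use the control 48 h arrays, so the pair is not independent.

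The call of these 12 rested on few arrays. Ra 48 h replicate 2 was the lowest Ra 48 h array in 45 members, as in 88.9% of all genes. In 38 members it was below control 48 h replicate 3, which was not counted for all genes. Without Ra 48 h replicate 2, 28 members rose, among 1126 of the 10050 genes, the 12 included. The median member difference was then 0.97 log2 units against 0.01 for all genes. The limma adjusted p of the 12 then ran from 0.00539 for ESPL1 to 0.0342 for DLGAP5. Without control 48 h replicate 3, 34 members rose among 645 genes, and without Ra 48 h replicate 3, 4 rose among 85, where 301 genes rose with all arrays. Without any 1 of the 12 h arrays 6 members rose, among 166 to 187 genes. Without control 48 h replicate 1 or replicate 2, 0 members rose among 37 and 17 genes, and the median member difference was then 0.45 and 0.72 log2 units. The 12-array fit shares its spread estimate with the 12 h arrays, which varied less. For Ra at 48 h the members' median SE was 0.27 log2 units in it and 0.35 in a fit of the 6 arrays of 48 h alone. In that 6-array fit 0 members passed (20 higher at an unadjusted p under 0.05, against 4.02% of all genes, and lowest limma adjusted p = 0.193). Of all genes 0 passed there too, with 1748 at that unadjusted p. With the replicate number as a block that fit called 1 member, SPC25, where 0.368% of all genes rose. After centring each array on its median, which removes the shift of -0.20 in all genes, 41 members rose among 1578 genes that rose, with a median member difference of 0.97.

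SPC25 showed the largest difference. It read 9.76, 9.67 and 10.27 with Ra against 7.35, 7.93 and 9.19 in control cells, a 3.35-fold rise (1.75 ± 0.36 log2 units, SE, n = 3 per group; limma adjusted p = 0.015). ESPL1 (separase) read 9.18, 8.60 and 9.55 against 7.48, 7.69 and 8.31 (1.28 ± 0.26, limma adjusted p = 0.0148). PTTG1 (securin) read 11.87, 11.54 and 12.40 against 10.56, 10.49 and 11.34 (1.14 ± 0.25, limma adjusted p = 0.019). In all 3 genes every Ra array was above every control array. The same held for NEK2, MAD2L1, KIF20A, CENPF and ASPM, 8 members in all, as for 5.37% of all genes.

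Among the motors and spindle proteins, KIF20A read 10.49, 9.99 and 10.76 with Ra against 8.61, 9.14 and 9.81 (1.23 ± 0.27, limma adjusted p = 0.0208). ASPM, which works at spindle poles, read 11.20, 10.74 and 11.52 against 9.44, 9.96 and 10.52 (1.18 ± 0.25, limma adjusted p = 0.0179). DLGAP5 read 10.64, 10.28 and 10.89 against 8.77, 9.50 and 10.35 (1.06 ± 0.31, limma adjusted p = 0.044), and here Ra replicate 2 fell just under control replicate 3. CENPF read 12.17, 11.78 and 12.16 against 10.22, 11.06 and 11.74 (1.03 ± 0.28, limma adjusted p = 0.0366). NUSAP1 rose by 0.67 ± 0.18 (limma adjusted p = 0.0375). KIF11 read 9.45, 9.52 and 10.49 against 8.02, 8.71 and 9.53 and did not pass (1.07 ± 0.34, limma adjusted p = 0.0571). Its Ra replicates 1 and 2 lay at the level of control replicate 3. TPX2 (11.62, 11.21 and 11.77 with Ra, 0.64 ± 0.20, limma adjusted p = 0.0506) and TOP2A (12.67, 12.01 and 13.06, 0.59 ± 0.24, limma adjusted p = 0.106) did not pass either.

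In the cyclin group CCNA2 and CDK1 rose. CCNA2 read 10.65, 10.16 and 11.12 with Ra against 8.89, 9.34 and 10.26 (1.15 ± 0.31, limma adjusted p = 0.0363). CDK1 read 11.68, 11.33 and 12.07 against 10.16, 10.81 and 11.33 (0.92 ± 0.25, limma adjusted p = 0.0363). In both genes only Ra replicate 2 reached down to a control array, which was replicate 3. CCNB1 read 12.06, 11.60 and 12.19 with Ra (0.51 ± 0.24, limma adjusted p = 0.159). CCNB2 read 11.05, 10.76 and 11.28 (0.66 ± 0.21, limma adjusted p = 0.0556). FOXM1 read 8.47, 7.49 and 8.53 (1.03 ± 0.33, limma adjusted p = 0.0576). These 3 genes had higher means that did not pass, and in each of them Ra replicate 2 was below control replicate 3.

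CDC25B read 12.45, 11.45 and 11.55 with Ra, where replicate 1 alone stood well above the control arrays, and its difference of 0.41 ± 0.24 did not pass (limma adjusted p = 0.249). CDC25C read 8.19, 7.10 and 8.30 (0.59 ± 0.31, limma adjusted p = 0.207). Among the kinases NEK2 rose, from 8.54, 8.77 and 9.38 to 10.19, 9.41 and 10.06 (0.99 ± 0.25, limma adjusted p = 0.0293). PLK1 read 8.89, 8.27 and 8.47 with Ra (1.35 ± 0.47, limma adjusted p = 0.0728), and its 3 Ra arrays lay close together while its control arrays ran from 6.09 to 8.60. AURKA (11.45, 10.89 and 11.62, 0.63 ± 0.27, limma adjusted p = 0.127) and AURKB (9.31, 9.14 and 10.24, 0.55 ± 0.28, limma adjusted p = 0.184) did not pass.

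Checkpoint and passenger genes gave 0 calls among 8 at 48 h. TTK read 9.71, 9.13 and 9.98 with Ra (0.69 ± 0.32, limma adjusted p = 0.154) and BUB1 9.91, 9.14 and 9.88 (0.24 ± 0.25, limma adjusted p = 0.529). BUB3 had the smallest difference of the 46 genes, 0.02 ± 0.16 (limma adjusted p = 0.934), with 12.10, 11.77 and 12.45 against 11.85, 12.16 and 12.23. MAD2L1 was separated between the groups, at 12.02, 11.92 and 12.49 against 10.88, 11.46 and 11.91, yet missed the threshold (0.72 ± 0.23, limma adjusted p = 0.0606). Of the anaphase genes UBE2C rose, with 12.36, 12.00 and 12.77 against 11.22, 11.42 and 12.10 (0.79 ± 0.23, limma adjusted p = 0.0439). CDC20 read 11.27, 10.52 and 11.29 (0.50 ± 0.22, limma adjusted p = 0.138) and CENPA 8.53, 8.11 and 8.97 (0.48 ± 0.26, limma adjusted p = 0.21). In CDC20, Ra replicate 2 lay within the range of the control arrays.

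**Figure D3:**
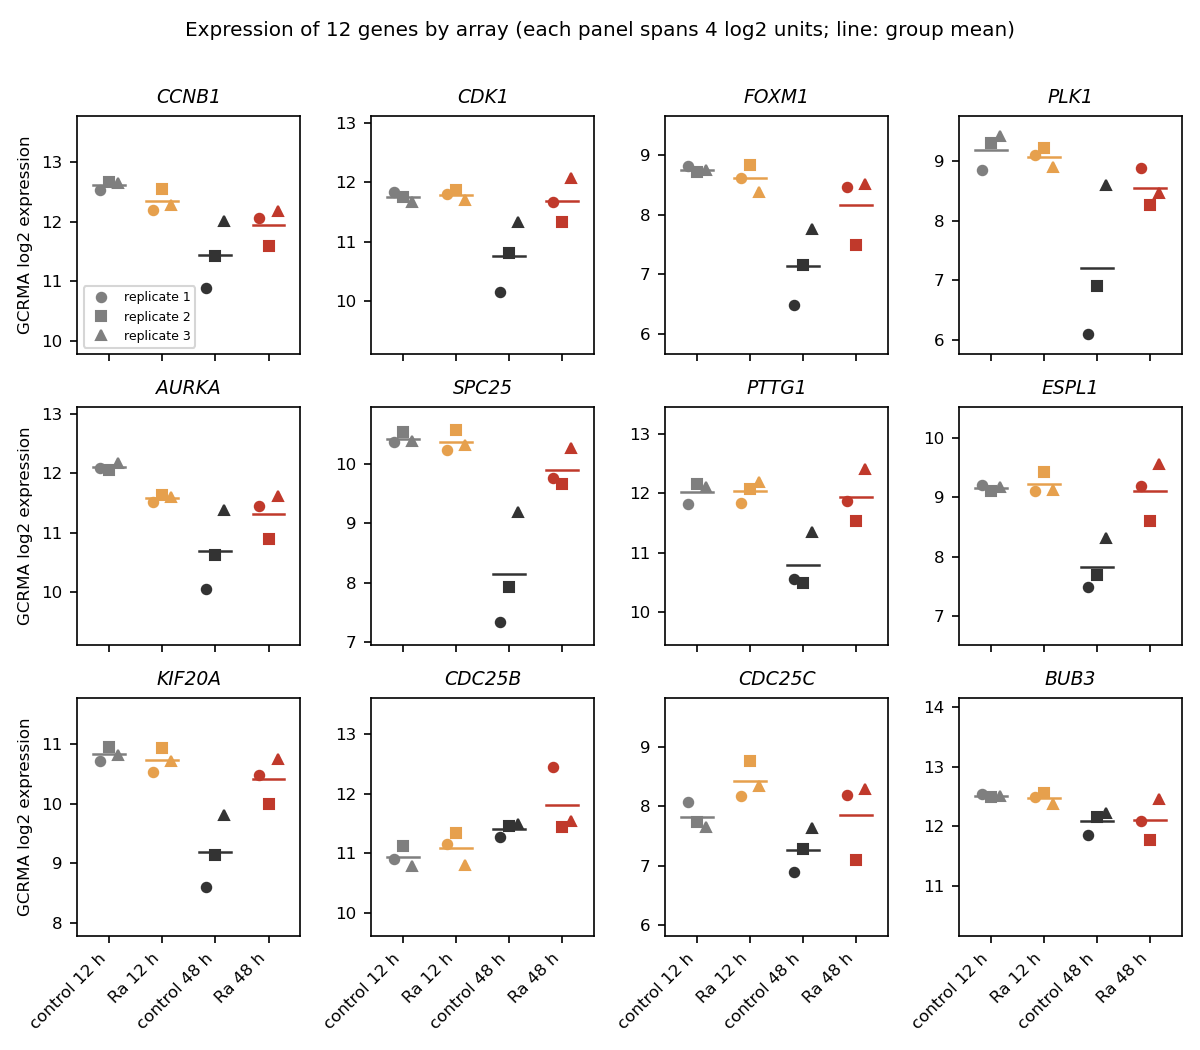
GCRMA log2 expression of 12 of the genes on every array, with circles, squares and triangles for replicates 1, 2 and 3 and a line at each group mean; each panel spans 4 log2 units. SPC25, PTTG1, ESPL1 and KIF20A have all Ra 48 h points above all control 48 h points, BUB3 hardly differs between these groups, and CDC25B is highest in Ra 48 h replicate 1.

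Ra-treated cells at 48 h lay between both control groups for most of these genes. The mean of Ra 48 h was between the means of control 48 h and control 12 h in 43 members, and at or above that of control 12 h in CDC25B, CDC25C and NEK2. Without Ra 48 h replicate 2 it was between them in 38 members and at or above control 12 h in 8. These counts were not made for all genes. The control means in them also enter the comparisons above, so the counts are not independent of those results. Array by array the members' median relative to control 12 h means was -0.35, -0.91 and -0.03 in Ra 48 h replicates 1, 2 and 3. Measured against the median of all genes on the same array the values were -0.38, -0.26 and -0.02, and those of control 48 h were -1.68, -1.20 and -0.60. On that scale the 3 Ra arrays lay above the 3 control arrays.

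Within Ra-treated cells the change from 12 h to 48 h was smaller and 0 members passed (limma, all 12 arrays), as did 0% of all genes. At an unadjusted p under 0.05 there were 5 lower and 1 higher member, and 15.5% of all genes. The median member was at -0.38 and the median of all genes at -0.21, and without Ra 48 h replicate 2 the members' median was -0.13. The largest lower means were those of KIF15 (-0.68 ± 0.41, limma adjusted p = 0.42), KIF23 (-0.63 ± 0.35, limma adjusted p = 0.383), a motor of the midzone, and KIF11 (-0.63 ± 0.34, limma adjusted p = 0.376). CDC25B had the only higher mean, 0.72 ± 0.24 (limma adjusted p = 0.23), with 11.15, 11.33 and 10.80 at 12 h and 12.45, 11.45 and 11.55 at 48 h. It was the member whose Ra 48 h arrays were all above the Ra 12 h arrays, as for 2.49% of all genes, and 7 members had them all below (CCNB1, PLK1, MELK, TTK, KIF4A, KIF18A and KIF23), as for 17% of all genes.

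The difference between the Ra effects at 48 h and 12 h, which is also the difference between both courses over time, was tested with an interaction term. It was positive in 45 of 46 members and in 34.4% of all genes, with a median of 0.86 against -0.19 for all genes, and 0 members passed (lowest limma adjusted p = 0.119), where 0.0199% of all genes did. At an unadjusted p under 0.05 there were 23 members, all positive, against 3.84% of all genes in that direction. SPC25 gave 1.80 ± 0.50 (limma adjusted p = 0.119), PLK1 1.46 ± 0.66 (0.251) and KIF20A 1.33 ± 0.39 (0.128), and CDC25C gave -0.01 ± 0.45 (0.996). A change over time that passed in control cells and did not pass with Ra is therefore not shown to differ between them in this fit. Without Ra 48 h replicate 2 the members' median was 1.09, and 4 members passed, where 3.18% of all genes did. Without control 48 h replicate 3 there were 18 members, against 5.69% of all genes, and after centring each array 20, against 8.52%, so that outcome moved with 1 array and with the scaling.

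**Figure D4:**
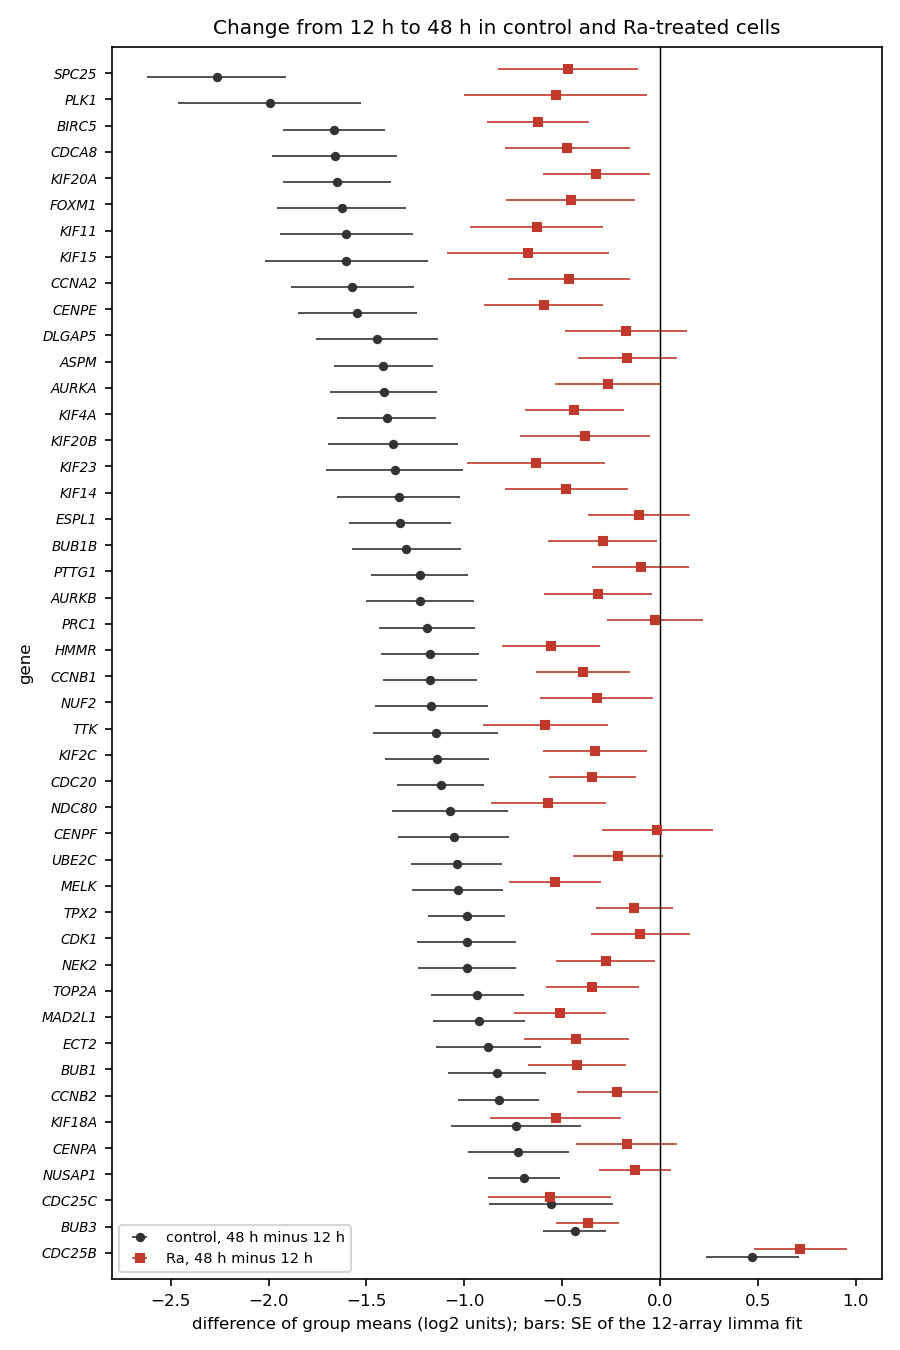
Difference of group means, 48 h minus 12 h, in log2 units with the SE of the 12-array limma fit, for each of the 46 genes in control cells (black circles) and Ra-treated cells (red squares), ordered by the control value. SPC25 is at -2.27 in control and -0.47 with Ra, while BUB3 (-0.44 and -0.37), CDC25C (-0.56 and -0.56) and CDC25B (0.47 and 0.72) differ little between the treatments.

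At 12 h the differences with Ra were small. In the fit of 12 arrays 0 of the 46 genes passed and 0 had an unadjusted p under 0.05 (limma), where 0.0299% of all genes passed and 7.47% had such a p. The median member was at -0.08 log2 units, with 31 lower and 15 higher means (48% and 52% of all genes). Differences ran from -0.52 ± 0.27 for AURKA to 0.60 ± 0.31 for CDC25C. That fit shares its spread estimate with the 48 h arrays, so the 6 arrays of 12 h were also fitted alone.

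In the 6-array fit AURKA, PRC1 and CDCA8 fell, where 6.25% of all genes fell, and 0 members rose, where 7.34% did. AURKA read 12.08, 12.05 and 12.17 in control cells and 11.52, 11.64 and 11.59 with Ra (limma adjusted p = 0.00685 in 6 arrays). PRC1, which bundles microtubules of the midzone, read 11.01, 11.08 and 11.02 and then 10.51, 10.78 and 10.56, a difference of -0.42 (limma adjusted p = 0.022 in 6 arrays). CDCA8 read 10.53, 10.52 and 10.60 and then 10.03, 10.34 and 10.16, a difference of -0.37 (limma adjusted p = 0.039 in 6 arrays). In these genes all Ra arrays lay below all control arrays, as they did in AURKB, KIF2C, NDC80 and TPX2. These were 7 members in all, while 16.9% of all genes did so. Among the 46 members, the 3 falls and these 7 are near the shares of all genes, so they do not set the members apart.

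The labels do not state that Ra and control arrays of the same number were paired, and their deviations correlated positively at 12 h. With replicate number added to the 6-array fit as a block, an alternative chosen after seeing the data, 12 members were called. That is near the share of all genes called there, 23.4%. Of these 9 fell, where 10.7% of all genes fell: AURKA, PRC1, AURKB, CDCA8, CDC20, CCNB1, BIRC5, KIF4A and TPX2, with limma adjusted p from 0.00289 to 0.0438. The other 3, MAD2L1, NEK2 and CDC25C, rose, where 12.7% of all genes rose, with adjusted p of 0.0321, 0.0381 and 0.0387. CCNB1 read 12.19, 12.55 and 12.29 with Ra against 12.54, 12.67 and 12.65, lower at each replicate number. CDC25C read 8.18, 8.76 and 8.34 against 8.07, 7.74 and 7.66, higher at each replicate number. Its groups did not overlap, as for 18.4% of all genes. MAD2L1 read 12.72, 12.87 and 12.37 against 12.28, 12.43 and 12.32. The passenger genes AURKB, BIRC5 and CDCA8 were among the 9 falls of this blocked fit. At 48 h they had higher means with Ra that did not pass in the fit of 12 arrays. Without Ra 48 h replicate 2, BIRC5 passed (limma adjusted p = 0.0354). All 46 members had higher means with Ra at 48 h, so this order is not particular to the passenger genes. Among genes not called in any of the 3 fits, PLK1 (-0.11 ± 0.47), FOXM1 (-0.14 ± 0.33), BUB1 (-0.17 ± 0.25) and TTK (0.13 ± 0.32) differed by less than the SE of the 12-array fit, as did CCNA2, CCNB2, CDK1, CDC25B, PTTG1, UBE2C, TOP2A, CENPF, CENPA, KIF11 and KIF20A.

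**Figure D5:**
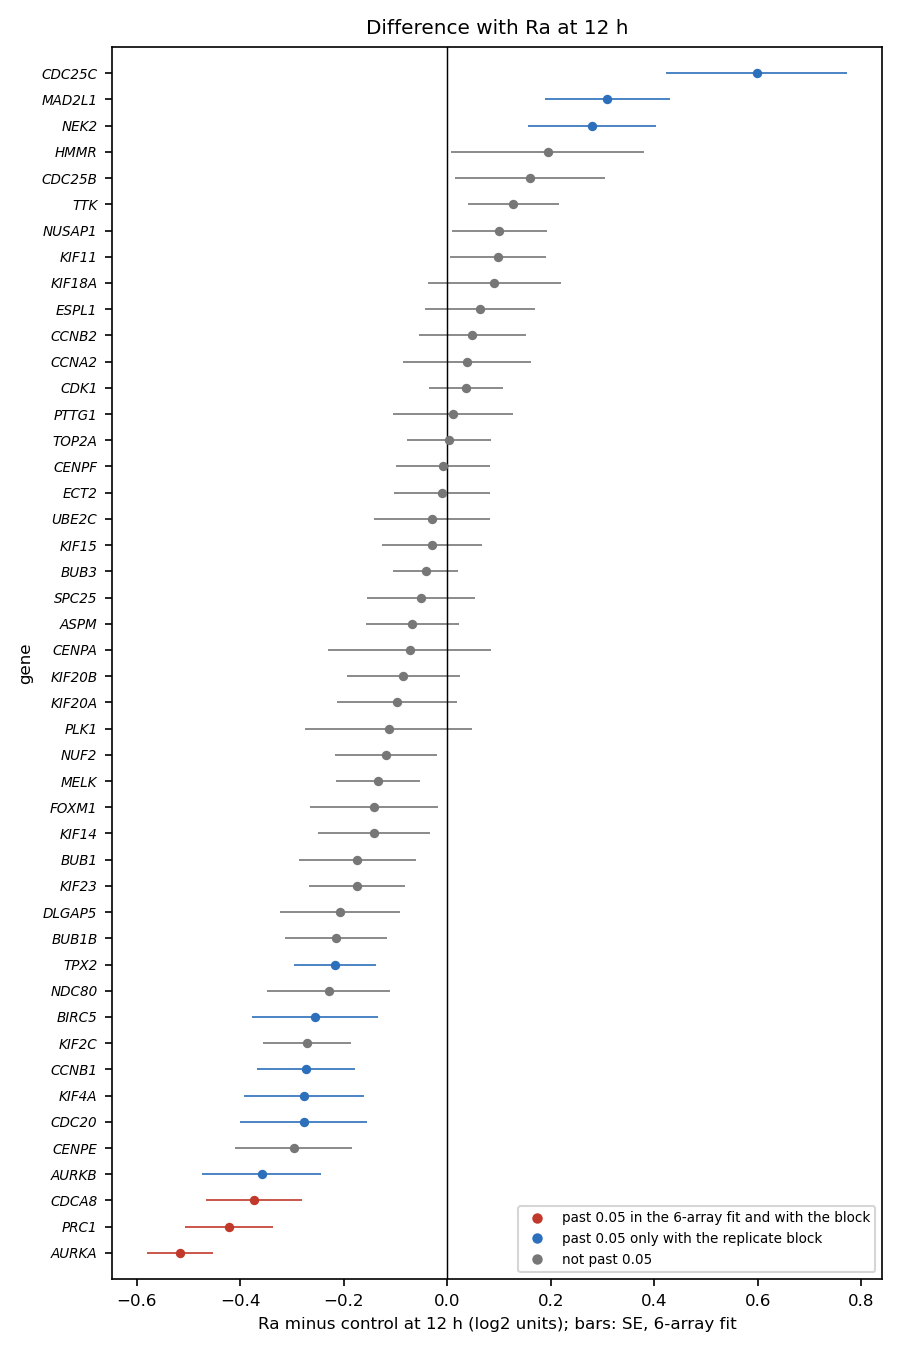
Ra minus control at 12 h for the 46 genes in log2 units, with the SE of the fit of the 6 arrays of 12 h, ordered by size; red marks genes past an adjusted p of 0.05 in that fit and with the replicate number as a block, blue those past it only with the block. AURKA, PRC1 and CDCA8 are the red points, and CDC25C, MAD2L1 and NEK2 are the blue points above 0.

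Other probe sets gave the same signs at 48 h, though not always the same sizes. For Ra at 48 h, BUB3 differed by 0.02 log2 units on its chosen probe set and by 0.24, 0.002 and 0.32 on others past the filter. On the last of these BUB3 changed over time by -0.25 in control cells and 0.0004 with Ra. CCNB1 differed at 48 h by 0.51 on its chosen probe set and 0.09 on another, and CDC25C by 0.59 and 1.12. Of 30 further probe sets of 20 members that passed the filter, 30 had the same sign as the chosen probe set for Ra against control at 48 h, and 29 for control cells over time, where the exception was a KIF20B probe set whose probes may bind other transcripts. At 12 h 19 of the 30 had the same sign.

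Genes of the same pathway outside the list were read in the same fit. In it 10.1% of all genes fell in control cells over time and 3% rose with Ra at 48 h. Of 57 measured other mitosis genes 40 fell in control cells over time and 9 rose with Ra at 48 h, with medians of -1.02 and 0.60. The largest falls were those of NCAPH, a condensin subunit (-2.38 ± 0.41 log2 units), TRIP13, which recycles checkpoint complexes (-2.04 ± 0.29), CENPI (-1.97 ± 0.40) and CCNF, an F-box protein of the cyclin family (-1.96 ± 0.31). With Ra at 48 h CCNF rose by 1.54 ± 0.31, the CENPA chaperone HJURP by 1.43 ± 0.30, SPC24, which pairs with SPC25, by 1.32 ± 0.22 and lamin B1 (LMNB1) by 1.21 ± 0.29. Of 41 DNA replication genes 35 fell over time and 24 rose with Ra at 48 h, with medians of -1.20 and 0.91.

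Regulators of the group were read as well. Of all genes, 10.1% fell in control cells over time and 3% rose with Ra at 48 h. Of 10 measured MuvB, DREAM and B-MYB genes 3 fell in control cells over time: B-MYB itself, MYBL2 (-1.70 ± 0.23 log2 units), the E2F partner TFDP1 (-1.28 ± 0.19) and the MuvB subunit LIN9 (-0.78 ± 0.22). MYBL2 and TFDP1 rose with Ra at 48 h by 0.94 ± 0.23 and 0.75 ± 0.19. The list as a whole did not move this way. Its median was 0.16 in control cells over time, with 5 of 10 means higher, against 0.01 for all genes. With Ra at 48 h its median was -0.11, with 6 of 10 means lower, against -0.20 for all genes. The list for the anaphase-promoting complex also holds FZR1 and UBE2S, which are not subunits, and UBE2S is listed with the other mitosis genes too. Of 15 measured genes of this list 2 fell over time, where 10.1% of all genes fell: ANAPC15 (-1.16 ± 0.29) and CDC26 (-0.97 ± 0.25). With Ra at 48 h ANAPC10 fell (-0.84 ± 0.22), where 9.56% of all genes fell.

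Of all genes, 9.37% rose and 10.1% fell in control cells over time, and 3% rose and 9.56% fell with Ra at 48 h. These shares stand beside every list in this paragraph. Of 13 measured brakes on CDK1 and on the cycle, 5 rose and 3 fell in control cells over time. GADD45A, a stress-induced inhibitor of CDK1, rose by 2.19 ± 0.25 log2 units, the CDK inhibitors CDKN1A (p21) and CDKN1C (p57) by 1.18 ± 0.32 and 1.07 ± 0.25, and CCNG2 by 0.82 ± 0.19. WEE1 and PKMYT1, the kinases that place the inhibitory phosphates on CDK1, fell (-1.11 ± 0.28 and -0.86 ± 0.21), as did SFN (-0.96 ± 0.27). With Ra at 48 h GADD45A fell (-1.76 ± 0.25) and WEE1 rose (1.24 ± 0.28), the only brakes of the 13 that passed in that comparison. Of 12 genes of mitotic exit phosphatases and their regulators, MASTL, the kinase that restrains the phosphatase PP2A, fell over time (-1.51 ± 0.34). PPP1CC (-0.72 ± 0.16) and ENSA (-0.59 ± 0.19), which is not itself a phosphatase, fell as well. PPP1CB rose over time (0.30 ± 0.10) and fell with Ra at 48 h (-0.52 ± 0.10). Of 15 tubulin genes 9 fell and TUBE1 rose (2.85 ± 0.71) over time, and with Ra at 48 h TUBB4B rose by 0.82 ± 0.20 and TUBB by 0.73 ± 0.20 while TUBE1 fell (-2.90 ± 0.71). At 12 h 0 genes of these 7 lists passed in the fit of 12 arrays.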

How the data were processed

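Total RNA of 12 HK-2 samples was measured on Affymetrix arrays. The authors' deposited values are on a log2 scale and were made with GCRMA, per the submitters' processing notes; its version is not given in the sources used here. GCRMA shrinks low signals, so values under about 5 log2 units depend on its background model. Of 54675 probe sets, 41097 had 1 gene symbol in the platform annotation, 1801 several and 11777 none; 17339 reached 5 log2 units on at least 3 arrays, and the brightest probe set stood for each of 10050 genes. No 2 arrays were identical.

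Groups and replicate numbers came from the labels. limma 3.58.1 in R 4.3.3 fitted a mean for each of the 4 groups (8 residual degrees of freedom) moderated along an intensity trend, and p-values of all 10050 genes were adjusted together (Benjamini-Hochberg, 0.05). Members, roles and pathway lists were chosen with earlier results of these data known, so their direction is no independent evidence, and no set test was run. Full statistics were given for a core of members fixed by role and, in each comparison, for up to 8 members each way with the largest change past the test, or the 3 largest each way where none passed; genes outside the list were up to 4 each way per pathway list. As a check of pairing, Ra and control arrays, each minus its group mean, were correlated. Same-numbered arrays gave 0.182, 0.421 and 0.344 at 12 h, and different-numbered ones -0.397 to -0.004. At 48 h same-numbered arrays gave 0.301, -0.219 and 0.097, and different-numbered ones -0.389 to 0.250. With 3 arrays in a group these values cannot show pairing, which the labels do not state. Code was tested on simulated data. Promoters came from RefSeq. Alternatives were other filters, probe set choices, normalizations, moderation, weights, blocks, 6-array fits and leaving out each array.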

Additional observations from a re-analysis of the deposited data

How the results depend on the processing

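No median over the members and no difference of a member tracked here changed sign in the alternatives run. The counts of members called moved by over 1.5 times as follows, with the share of all genes tested that the same fit called in brackets where given. For Ra at 12 h (0 called, 0.0299%), array weights gave 4 (23.5%), the 6-array fit 3 (13.6%) and that fit with the replicate block 12 (23.4%). For Ra at 48 h (12 called, 12.6%), no filter gave 2 (1.65%), a filter at 7 log2 units 21 (17%), quantile normalization 41 (30%), median centring 41 (28.5%), array weights 44 (51.8%), the replicate block within each time 21 (13.3%), the 6-array fit 0 (0%) and that fit with the replicate block 1, SPC25 (1.3%); leaving out 1 array gave 0 to 34, with 6 without any 12 h array and 4 without Ra 48 h replicate 3. For the difference between the times (0 called, 0.0199%), quantile normalization gave 15 (9.4%), median centring 20 (8.52%), array weights 42 (44.4%) and the replicate block within each time 1 (0.358%); leaving out 1 array gave 0 to 18. For control cells over time (41 called, 19.5%), leaving out 1 array gave 22 to 43, where 7.84% to 40.7% of all genes were called over these fits. For Ra-treated cells over time (0 called), quantile normalization (1.61%) and median centring (1.47%) gave 1 each, a rise, and leaving out 1 array gave 0 each time. The replicate block over all 12 arrays gave 0 for Ra at 12 h (0.0398%), 16 for Ra at 48 h (14.7%) and 0 for the difference (0.597%). Over time it gave 42 for control cells (20.6%) and 0 for Ra-treated cells (0.00995%). The number of samples is smaller where an array is left out, and the cause of the other shifts was not tested. The array weights were 0.0512 for Ra 48 h replicate 2 and 0.293 for control 48 h replicate 3. SPC25 passed at 48 h in 21 of 24 alternatives (limma adjusted p from 1.36e-05 to 0.193) and ESPL1 in 20. KIF20A and NEK2 passed in 18 of 24, ASPM in 17 and PTTG1 in 18 of 23. CCNA2 and CDK1 passed in only 12 of 24, UBE2C and NUSAP1 in 11, and DLGAP5 and CENPF in 10. Of the falls in control cells tracked here, SPC25, BIRC5, KIF20A and KIF11 passed in 22 of 22. CDCA8 and FOXM1 passed in 21 of 21, PLK1 in 20 of 22 and KIF15 in 16 of 22.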
